A study of Mus musculus with 4 samples.

Results

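The 31 genes described here encode the proteins that bring pyruvate into the mitochondrion, turn it into acetyl-CoA, run the tricarboxylic acid (TCA) cycle and burn ketone bodies. They were chosen by name for their role in the pathway, with no measured value in the rule, out of 21900 protein-coding genes. Earlier results of these data were known when the choice was made. The data are peaks of ATF4, a basic leucine zipper transcription factor of the integrated stress response, in heart ventricle of mice aged 4 weeks. Chromatin was fixed with formaldehyde, sheared and captured on streptavidin beads, and sequenced from 2 pull-down samples. Another 2 samples are input chromatin with no pull-down, whose values are not analysed here. Strain, sex and genotype are not given in the sources used here, and every sample shares the tissue and age. The antibody field of the pull-down samples says AAV and nothing more, so endogenous ATF4 and ATF4 supplied by a viral vector cannot be told apart from the labels. The labels also do not say whether the replicates came from separate animals, so an SD between them measures only the spread between these samples.

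Pyruvate enters the mitochondrial matrix through a carrier made of MPC1 and MPC2. The pyruvate dehydrogenase complex then makes acetyl-CoA from it; kinases of the PDK family switch the complex off by phosphorylation and phosphatases switch it on again. Acetyl-CoA from sugar, fat and ketone bodies is oxidised in the TCA cycle, which supplies the electrons for respiration. The heart is known as an organ that burns mostly fat, that keeps pyruvate oxidation under control of the kinases, and that takes up ketone bodies in fasting and in failure. ATF4 is known to bind composite sites as a heterodimer with C/EBP proteins, and also sites of the cyclic AMP response element (CRE) type.

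The authors deposited a peak list for each replicate (78746 and 88812 peaks) and a series-wide list of 41639 peaks. The series-wide list is labelled IDR merged, where IDR stands for irreproducible discovery rate, a filter that keeps peaks on which replicates agree. A fold enrichment here is the height of a peak over a constant background for the whole sample, not over input, and a gene end is either end of its model, with 1 kb to each side. The lowest fold was 7.5 in the series-wide list, 5.50 in replicate 1 and 5.32 in replicate 2. Replicate folds under 7.5 were extrapolated and not read from a deposited fold. Folds move in steps of 0.5 in replicate 1 and 0.443 in replicate 2, and the lists give no read depth. Series-wide gene-end peaks were found at 6 of 6 markers of cardiomyocytes, 0 of 3 of endothelium and 1 of 3 of fibroblasts. Of immune cells 1 of 2 had one, of liver 2 of 2 and of neurons 0 of 2, against 34.9% of all protein-coding genes. Groups of 2 or 3 genes are too small to compare with that share. A peak is not a measure of expression, and both liver genes, Alb and Apoa1, had one.

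Of the 31 genes, 22 had a series-wide peak at a gene end (71.0%), where 34.9% of all protein-coding genes had one. In replicate 1 the count was 28 of 31 (90.3%, against 48.2% of all genes), and in replicate 2 it was 27 of 31 (87.1%, against 50.2%). The same 27 genes had a gene-end peak in both replicates, a state shared by 45.2% of all genes, and Dld had one in replicate 1 alone, a state shared by 8.04%. Pdha1, Pdk3 and Bdh1 had none in either replicate, as had 46.8% of all genes. Pdha1 lies past the last X peak of the replicate lists, so they could not have shown a peak there. Dlat, Fh1, Idh3a, Idh3g and Suclg2 had one in both replicates but not in the series-wide list, as had 11% of all genes. With the 28 genes whose strand is known and the gene start alone as the window, 20 had a peak (71.4%, against 32.9%). With the gene body and 10 kb to each side, 25 of 31 had a series-wide peak (80.6%, against 61.1%), and 29 had one in each replicate list (against 72.3% of all genes in replicate 1 and 74.1% in replicate 2). With gene ends widened to 5 kb the series-wide count was 23, against 47.4% of all genes. No test was run of these shares, since the genes are not replicates.

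Promoters rich in CpG carried peaks more often throughout the genome, and most of the 31 genes have such promoters. Among genes whose promoter had an observed-to-expected CpG ratio of at least 0.6, 55.6% had a series-wide peak at a gene end, and 16 of 22 of the pathway genes in that class did (72.7%). Of the genes below that ratio 16.7% had a peak, as did 4 of 6 pathway genes in that class, namely Pdk4, Pdp2, Acly and Oxct1. The part of CpG content in the shares was not tested.

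**Figure D1:**
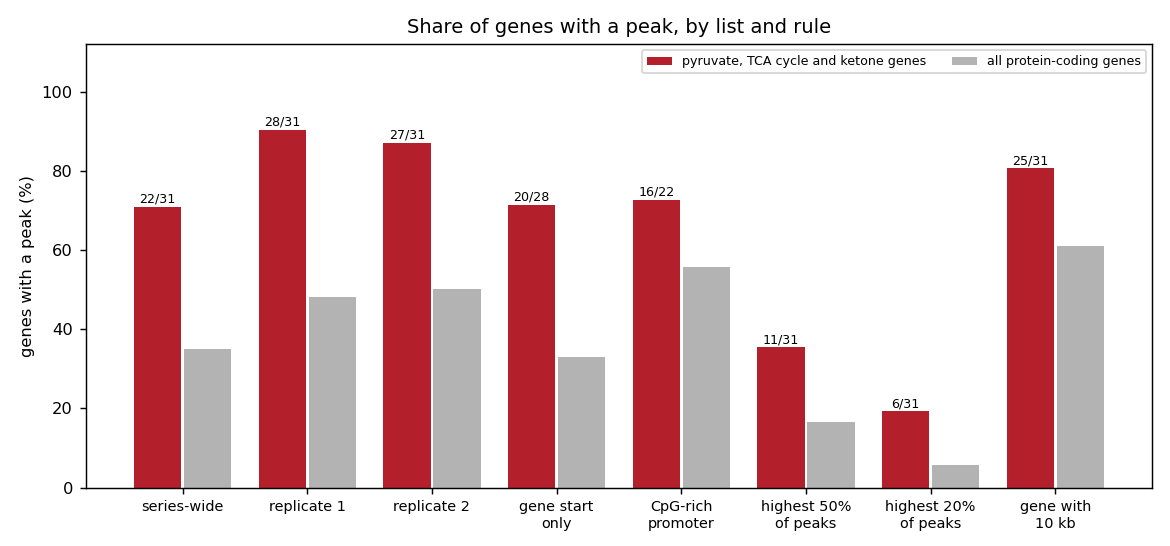
Percent of genes with a peak, for the pyruvate, TCA cycle and ketone genes (left bar, with counts) and for all protein-coding genes (right bar), by peak list and rule; all but the last group of bars use gene ends or starts with 1 kb, and the groups from gene start onward use the series-wide list. The pathway genes stand above all genes in each group, by 71.0% against 34.9% for the series-wide list and by 19.4% against 5.66% for the highest 20% of peaks.

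Peak strength was spread widely over the pathway. The strongest gene-end peak of the 22 genes had a median series-wide fold of 13.6 (8.42 to 39.4), next to a median of 13.3 over all 7644 genes with a peak. In replicate 1 the medians were 11.8 over the pathway genes with a peak and 10 over all genes with one, and in replicate 2 they were 10.6 and 10.2. Of the upper 50% of series-wide peaks (13.7-fold and more) 11 of the 31 genes had one at a gene end, where 16.7% of all genes did. Of the upper 20% (21.5-fold and more), 6 genes had one, Pdhb, Cs, Oxct1, Pdhx, Mdh2 and Ogdh, where 5.66% of all genes did. These 6 encode a core subunit and an anchoring protein of pyruvate dehydrogenase, 3 enzymes of the cycle and the enzyme that activates acetoacetate. The Pdhx and Mdh2 summits lay nearer to the starts of the neighbours Apip and Styxl1, and those peaks cannot be assigned to either gene. Ogdh counted only through the edge of a peak whose summit lay 1235 bp before its start. Its highest fold was 16.0 with a window of 500 bp, or with the summit or 50% of the peak required inside.

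**Figure D2:**
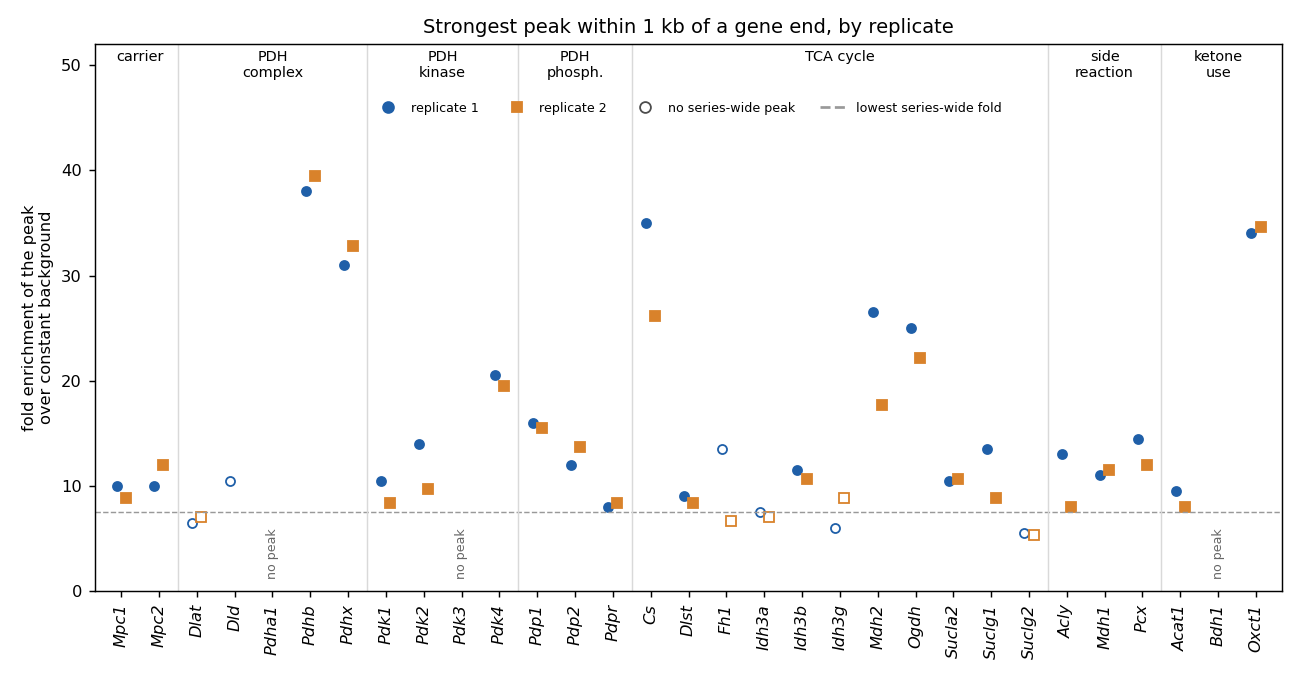
Fold enrichment of the strongest peak within 1 kb of a gene end in replicate 1 (circles) and replicate 2 (squares), by gene and role; filled symbols give both replicates' folds at the strongest series-wide peak, open symbols the replicate peaks of genes without one, and the dashed line is the lowest series-wide fold of 7.5. Pdhb, Pdhx, Cs and Oxct1 reach 26.2-fold or more in both replicates, while Pdha1, Pdk3 and Bdh1 have no peak in either. Pdha1 lies past the last X peak of the replicate lists.

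Promoter sequences of 28 of the 31 genes were found in the RefSeq table (GRCm38.p6, 250 bases before to 50 after a start) as 38 windows and searched on both strands. Pdp1, Idh3a and Acat1 were the others. The composite site TGATGCAA was in none of the 38 windows, against 0.865% of all 21263 promoter windows, and its looser form TGATGNAA, which includes it, was also in none, against 3.60%. The palindromic CRE, TGACGTCA, was in 3 of 28 genes (10.7%), against 2.54% of all genes, and among CpG-rich windows in 4.78% of those with a series-wide peak and 2.57% of those without. Those 3 were Mdh2, Ogdh and Pdpr, and each match lay inside a series-wide peak, 72 bp from the summit at Mdh2, 73 bp at Ogdh and 8 bp at Pdpr. The stretches are shown because they are the only full CRE matches in the 28 promoters; capitals mark the match. They lie at chr5:135778482-135778569 (Mdh2), chr11:6291506-6291593 (Ogdh) and chr8:111094557-111094644 (Pdpr), all on the plus strand.
Mdh2: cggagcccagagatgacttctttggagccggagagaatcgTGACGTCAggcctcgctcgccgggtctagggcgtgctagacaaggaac
Ogdh: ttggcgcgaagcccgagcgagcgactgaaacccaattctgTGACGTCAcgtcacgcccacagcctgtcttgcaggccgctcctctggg
Pdpr: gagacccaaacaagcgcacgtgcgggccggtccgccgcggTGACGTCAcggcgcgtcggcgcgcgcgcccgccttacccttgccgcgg

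A shorter form of that site, TGACGT, which every full CRE holds on each strand, was in 8 of the 28 genes (28.6%), against 9.60% of all genes. Over all 21263 promoter windows it stood in 14.9% of those with a series-wide peak and 5.65% of those without, and among CpG-rich windows in 16.7% and 9.31%. Apart from the 3 genes above, it was in Pdhb, Suclg1, Fh1, Dld and Idh3g. The match lay inside a replicate 1 peak in all 5, inside a replicate 2 peak in all of them except Dld, and inside a series-wide peak only in Pdhb and Suclg1. The window of Pdhb belongs to an inner RefSeq start. The stretches are given on the strand of the gene, with the match in capitals (ACGTCA is TGACGT read on the other strand), and lie at chr14:8173204-8173242 (Pdhb, minus), chr6:73248473-73248538 (Suclg1, plus), chr1:175625594-175625659 (Fh1, minus), chr12:31351422-31351475 (Dld, minus) and chrX:73787062-73787145 (Idh3g, minus).
Pdhb: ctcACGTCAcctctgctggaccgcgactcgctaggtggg
Suclg1: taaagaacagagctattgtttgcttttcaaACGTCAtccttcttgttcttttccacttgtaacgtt
Fh1: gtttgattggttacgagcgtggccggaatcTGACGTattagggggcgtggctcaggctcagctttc
Dld: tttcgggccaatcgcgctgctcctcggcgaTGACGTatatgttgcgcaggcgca
Idh3g: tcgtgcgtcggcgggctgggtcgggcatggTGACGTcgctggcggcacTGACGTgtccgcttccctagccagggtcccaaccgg

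Strong promoter peaks were also found where none of these letters occurred. The promoters of Cs (chr10:128337477-128337776, plus strand) and Pdk4 (chr6:5496229-5496528, minus strand) are shown as examples; capitals mark the 21 bases centred on the series-wide summit, 115 and 75 bases before the start. Both are the summits of replicate 1, and those of replicate 2 lay at -221 for Cs and -284 for Pdk4. A match is a description of letters, and its lack says only that they are not in this window.
Cs: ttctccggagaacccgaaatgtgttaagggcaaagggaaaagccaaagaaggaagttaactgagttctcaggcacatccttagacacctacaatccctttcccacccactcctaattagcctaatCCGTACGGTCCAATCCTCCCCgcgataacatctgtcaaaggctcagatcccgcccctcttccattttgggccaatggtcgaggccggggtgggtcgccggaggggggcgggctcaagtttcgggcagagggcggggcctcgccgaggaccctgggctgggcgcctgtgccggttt
Pdk4: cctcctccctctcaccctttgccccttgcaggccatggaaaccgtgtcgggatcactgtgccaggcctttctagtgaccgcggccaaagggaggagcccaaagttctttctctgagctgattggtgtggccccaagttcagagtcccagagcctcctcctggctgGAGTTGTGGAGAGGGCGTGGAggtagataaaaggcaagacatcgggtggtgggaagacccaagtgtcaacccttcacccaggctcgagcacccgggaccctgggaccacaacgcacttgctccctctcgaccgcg

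Both genes of the pyruvate carrier had a modest peak at the start. Mpc1 had 10-fold in replicate 1 and 8.87-fold in replicate 2 (9.43 ± 0.80 SD, n = 2). Mpc2 had 10-fold and 12-fold (11 ± 1.39 SD, n = 2). The summits of the Mpc2 peak lay 679 bp apart in the replicates, the widest gap among the 22 genes. That peak also covered the start of a neighbour, Dcaf6. The replicate 1 summit was nearer to the start of Dcaf6, 292 bp away. The replicate 2 summit was nearer to that of Mpc2, 33 bp away, so the peak cannot be assigned to either gene.

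Subunits of the pyruvate dehydrogenase complex fell into a strongly marked pair and a weak or empty remainder. Pdhb, the beta subunit of the E1 component, had the strongest gene-end peak of the pathway: 38-fold in replicate 1 and 39.4-fold in replicate 2 (38.7 ± 1.02 SD, n = 2) at chr14:8172780-8174004. That ranks 221 among the 7644 genes with a gene-end peak, and the replicate summits were 7 bp apart. Pdhx, which anchors the E3 component, had 31-fold and 32.8-fold (31.9 ± 1.27 SD, n = 2) at chr2:103073063-103074221. The Pdhx summit lay 95 bp from the start of the divergent gene Apip, a methionine salvage enzyme, and at -257 bp from that of Pdhx, so the peak cannot be assigned to either gene.

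Dlat, the E2 acetyltransferase, had only weak replicate peaks of 6.50-fold and 7.09-fold, both under the lowest series-wide fold of 7.5, and their summits were 968 bp before and 20 bp after the start. Dld, the E3 subunit shared with other dehydrogenases, had a peak of 10.5-fold at its start in replicate 1 and none there in replicate 2. A series-wide Dld peak of 10.2-fold had its summit 1083 bp inside the gene, just past the 1 kb limit, with 9.5-fold and 10.2-fold in the replicates. Pdha1, the catalytic alpha subunit of E1 that the kinases phosphorylate, had no peak in any list within the gene or 10 kb of it. Its locus lies at 160122219 to 160138430 on the X chromosome, past the last X peak of the replicate lists at 155.994 Mb, so those lists could not have shown it. The series-wide list does reach further on X, with 75 peaks past that point, and there the nearest peak to Pdha1 was 159 kb away.

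Among the 4 kinases, Pdk4 had the strongest peak. Pdk4, which in heart is known to rise in fasting and to spare glucose, had 20.5-fold and 19.5-fold in replicates 1 and 2 at its start (20.0 ± 0.71 SD, n = 2; chr6:5495992-5496946). A further Pdk4 peak 2577 bp upstream had 20.0-fold and 14.6-fold. Pdk2, the most widely expressed kinase, had 14-fold and 9.75-fold (11.9 ± 3.0 SD, n = 2), with replicate summits 741 and 736 bp inside the gene, where the series-wide list has 978 bp. Pdk1 had 10.5-fold and 8.42-fold (9.46 ± 1.47 SD, n = 2), 2 bp from its start. Pdk3 had no peak in any list within the gene or 10 kb of it.

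The phosphatases had weaker peaks than Pdk4. Pdp1, the calcium-stimulated catalytic subunit, had 16.0-fold and 15.5-fold (15.8 ± 0.34 SD, n = 2), and Pdp2 had 12-fold and 13.7-fold (12.9 ± 1.23 SD, n = 2). Pdpr, the regulatory subunit, had 8.0-fold and 8.42-fold (8.21 ± 0.30 SD, n = 2), the lowest series-wide fold of the 22 genes, over the CRE shown above. At the far end of Pdpr replicate 1 alone had a peak of 9.5-fold. Pdp2 had 4 further series-wide peaks 11.4 to 17.9 kb from its start, the strongest of 27.5-fold and 20.4-fold, but all of them were nearer to an end of Cdh16.

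In the TCA cycle, 7 of 11 genes had a series-wide gene-end peak (against 34.9% of all genes), and all 11 had a gene-end peak in each replicate (against 48.2% in replicate 1 and 50.2% in replicate 2). Cs, citrate synthase, which condenses acetyl-CoA with oxaloacetate, had 35.0-fold and 26.2-fold at its start (30.6 ± 6.26 SD, n = 2; chr10:128337225-128338367). Inside Cs, 7.29 kb from the start, lay the strongest peak at any of the 31 genes, with 41-fold and 38.1-fold (chr10:128344621-128345323). Counted with 10 kb to each side, Cs had 8 series-wide peaks, the most of the 31 genes, although the pair at the far end were nearest to Coq10a. The replicates were further apart at the start of Cs than at the intragenic peak.

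Mdh2, mitochondrial malate dehydrogenase, had 26.5-fold and 17.7-fold (22.1 ± 6.20 SD, n = 2), with replicate summits 8 bp apart. The summit was 30 bp from the start of the divergent gene Styxl1 and at -195 bp from that of Mdh2, so the peak cannot be assigned to either gene. Ogdh, the E1 subunit of the 2-oxoglutarate dehydrogenase complex, had 25.0-fold and 22.2-fold (23.6 ± 2.01 SD, n = 2) at a site 1235 bp upstream of its start. In replicate 2 that peak was shorter and ended just outside the 1 kb window. Its start itself, where the CRE lies, was covered by another, weaker peak of 12.5-fold and 16.0-fold. Another peak, at -8.47 kb and nearer to Tmed4, had 20.0-fold and 20.8-fold.

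The other TCA cycle genes had smaller peaks. Idh3b, a subunit of NAD-dependent isocitrate dehydrogenase, had 11.5-fold and 10.6-fold, and Sucla2, of succinyl-CoA synthetase, had 10.5-fold and 10.6-fold. Suclg1, the subunit common to both forms of that enzyme, had 13.5-fold and 8.87-fold (11.2 ± 3.28 SD, n = 2). Dlst, the E2 subunit of the 2-oxoglutarate complex, had 9.0-fold and 8.42-fold at its start. That peak also covered the start of Prox2, so it cannot be assigned to either gene.

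For 4 genes of the cycle, peaks at the gene ends occurred in both replicate lists but not in the series-wide list. Idh3a, the catalytic subunit of isocitrate dehydrogenase, had 7.5-fold and 7.09-fold, and a series-wide peak of 13.0-fold and 10.6-fold inside the gene. Idh3g had 6.0-fold and 8.87-fold, with summits 43 and 61 bp from the start of Ssr4, a divergent neighbour, so they cannot be assigned to either gene. Suclg2 had 5.50-fold and 5.32-fold, the lowest values of the lists, at separate sites with summits 610 and 65 bp inside its start. A series-wide peak of 12-fold and 9.75-fold lay 5.34 kb inside this 246 kb gene. Fh1, fumarase, had 13.5-fold and 6.65-fold (10.1 ± 4.84 SD, n = 2), the pair of values furthest apart as a ratio among the 27 genes with both, at summits 171 and 159 bp upstream.

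Reactions beside the cycle had peaks of 7.98 to 14.5-fold. Mdh1, the cytosolic malate dehydrogenase of the malate-aspartate shuttle, had 11-fold and 11.5-fold (11.3 ± 0.37 SD, n = 2). That summit lay 10 bp from the start of the divergent gene Wdpcp, so the peak cannot be assigned to either gene. Within Mdh1 lay 4 more series-wide peaks of 11.5 to 15.5-fold. Pcx, pyruvate carboxylase, which refills oxaloacetate, had 14.5-fold and 12-fold (13.2 ± 1.79 SD, n = 2) at its outer start and no peak in any list within 1 kb of an inner RefSeq start at 4594319 on chromosome 19. Acly, ATP citrate lyase, which makes cytosolic acetyl-CoA, had 13.0-fold and 7.98-fold (10.5 ± 3.55 SD, n = 2), with replicate summits 3 bp apart.

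The genes of ketone use differed widely. Oxct1, the transferase that activates acetoacetate and sets the pace of ketone use in heart, had 34.0-fold and 34.6-fold (34.3 ± 0.40 SD, n = 2) in a peak of 3189 bp at chr15:4024698-4027886. The peak covered the gene start, with replicate summits at -762 and -779 bp. The series-wide list puts its summit at -1368 bp, where neither replicate has one. Along the first 54 kb of this 129 kb gene lay 5 more series-wide peaks, of 8.87 to 23.0-fold, and another lay at -5.62 kb. Acat1, the mitochondrial thiolase of the last step, had 9.5-fold and 7.98-fold (8.74 ± 1.08 SD, n = 2), 27 bp from a gene end.

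Bdh1, the dehydrogenase of the first step that oxidises beta-hydroxybutyrate, had no peak at a gene end in any list. Both replicates had a weak peak 7.73 and 7.78 kb from its outer start, of 7.0-fold and 8.87-fold, which reached within 1 kb of an inner RefSeq start and was not in the series-wide list. The nearest series-wide peak to Bdh1 was 35.1 kb away.

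Positions were concentrated at gene starts. Of the 20 genes with known strand and a series-wide gene-end peak, the strongest peak had its summit within 250 bp of the start in 15 (75%), where 57.6% of all 6219 such genes did. The median distance was 78 bp, next to 171 bp over all. At 3 of the 22 genes (Mpc1, Oxct1 and Pdk2) the series-wide summit was the summit of neither replicate's strongest peak, as at 11.7% of all genes with a peak. With the summit of the higher replicate in its place, 16 of 20 lay within 250 bp (80%, against 59.5% of all genes). By the series-wide summit, peaks lay upstream in 13 of the 20 and downstream in 7, and over all genes 47.9% lay downstream. In 5 of the 22 genes (Pdhx, Dlst, Mdh1, Mdh2 and Mpc2) the peak also touched the window of another protein-coding gene, and in 3 of these the other gene's end was the nearer.

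With 10 kb to each side the 31 genes held 64 series-wide peaks, of which 26 were at gene ends, 21 inside genes and 17 outside. Of the 17 outside, 11 were nearer to an end of another gene. At least 3 peaks were held by 9 genes (29.0%, against 22.3% of all genes), namely Cs, Oxct1, Mdh1, Pdp2, Pdhb, Pdhx, Mdh2, Ogdh and Pcx. A longer gene has more room for peaks: Oxct1 spans 129 kb and Pcx 111 kb, but Pdhb only 7.31 kb. Of the 3 Pcx peaks, the pair at the far end were nearest to Lrfn4 and Rce1.

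The replicates gave similar values at most of the 22 genes. The series-wide list is labelled as filtered for such agreement, so these values are no independent measure of it. Fh1, with 13.5-fold and 6.65-fold, had no series-wide peak and is not among the 22. The ratio of replicate 1 to replicate 2 had a median of 1.07 and ran from 0.836 to 1.63, and replicate 1 was the higher in 14 of 22 (63.6%, against 48.3% of all genes). Acly, Suclg1, Mdh2 and Pdk2 were the furthest apart. The summits lay a median of 30.5 bp apart, next to 29 bp over all genes with a peak in both replicates. With 2 samples of a single group no test of a difference between them can be made.

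**Figure D3:**
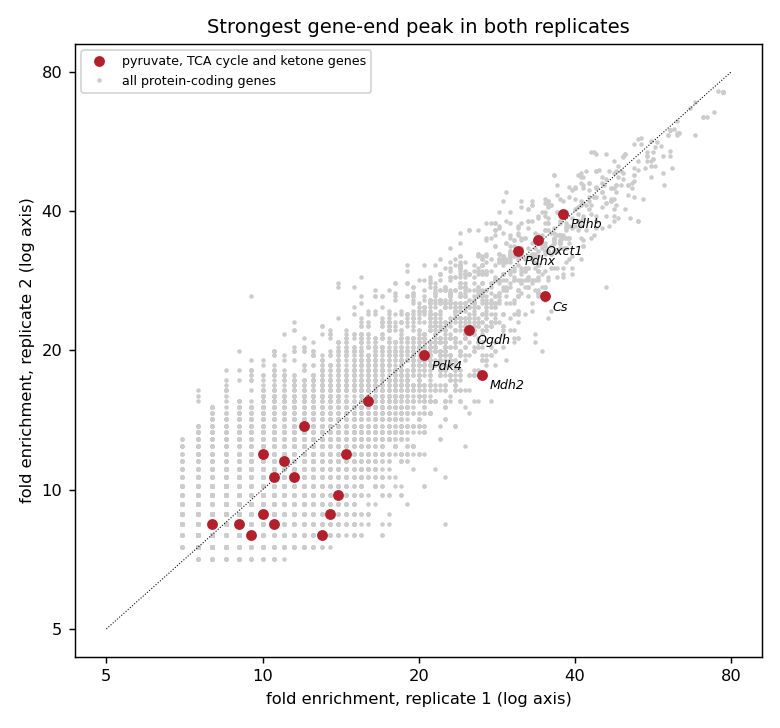
Fold enrichment of the strongest series-wide gene-end peak in replicate 1 (x) and replicate 2 (y), both on log axes, for the 22 pathway genes (large dots) and all protein-coding genes with both values (small dots); the dotted line marks equal folds. Pdhb, Oxct1 and Pdhx lie close to the line, while Cs and Mdh2 lie below it, with 26.2 and 17.7-fold in replicate 2.

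The 3 members on the X chromosome, Pdha1, Pdk3 and Idh3g, all lacked a series-wide peak at a gene end. Genes on X had one less often in general, 10.5% of 966 genes, against 36% on the other chromosomes. In the replicate lists the X shares were 20.2% and 22.3%, and the 966 genes include 69 past the last X peak of those lists. Without the X genes, 22 of 28 members had a series-wide gene-end peak (78.6%).

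Other genes of the same routes, a list of 32 likewise chosen with earlier results known, gave a similar picture. A series-wide gene-end peak was found at 23 (71.9%, against 34.9% of all genes), with a median fold of 11.5. Lias, which makes the lipoyl cofactor of the pyruvate and 2-oxoglutarate complexes, had 26.0-fold and 22.6-fold (24.3 ± 2.40 SD, n = 2), and its peak also touched an end of Rpl9. Pck2, mitochondrial phosphoenolpyruvate carboxykinase, had 23.5-fold and 20.4-fold (21.9 ± 2.20 SD, n = 2). Idh2, NADP-dependent isocitrate dehydrogenase, had 22.0-fold and 23.5-fold, 825 bp upstream of its start.

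The 9 genes of that list without a gene-end peak in the series-wide list were Me1, Me3, Ldha, Slc25a1, Bdh2, Acat2, Oxct2a, Oxct2b and Pdha2. Ldha, the lactate dehydrogenase subunit of fast glycolysis, had no gene-end peak in either replicate, while Ldhb, the heart-type subunit, had 7.5-fold and 12.4-fold. With 10 kb to each side both genes had 2 series-wide peaks, of up to 13.7-fold at Ldha and 18.2-fold at Ldhb. All 4 succinate dehydrogenase genes had a series-wide gene-end peak (against 34.9% of all genes), of 8.0 to 11.5-fold, each below the median of 13.3 over all genes with a peak. Oxct2a and Oxct2b are close copies of each other, so their values are uncertain; how reads were placed between them was not tested.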

How the data were processed

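Peaks were analysed from 2 ATF4 pull-down samples of mouse heart ventricle, grouped by their titles. Per the submitters' processing notes the tools were Bowtie2, MACS2 and deepTools and the build was mm10; roles, order and versions are not given in the sources used here. Each deposited replicate list holds a peak's position, its summit and the −log10 of a p-value or of a q-value, which of the pair being unsettled. The series-wide list gives the authors' deposited fold enrichment and a summit offset, with starts counted from 0. Replicate folds were read from peaks with identical coordinates and summit in the series-wide list (17420 in replicate 1 with 0 exceptions, 21053 in replicate 2 with 6). The lowest 4 and 5 values were continued downwards by whole steps, for 29431 peaks of replicate 1 and 36863 of replicate 2. Every replicate fold under 7.5 is such an extrapolation. The steps match constant backgrounds of 1.00 and 1.26. The SD beside a gene is over those folds, unscaled between samples. Depth is unknown, so no counting error is given.

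Genes were RefSeq models of GRCm38.p6, the assembly of mm10, and all 31 matched by symbol. Strand was taken from the RefSeq promoter table (17492 genes). A gene counted where at least 1 bp of a peak lay in the window. The members and lists were chosen with earlier results of these data known. Named in full were the 10 members with the highest gene-end fold, those without a series-wide gene-end peak, those with at least 3 peaks, and of the other list the 4 highest and those without; further members were named to account for all. A result that the rule named is not reported here. The shorter CRE form, the CpG classes and the promoter windows were chosen after the data were seen. No set test was run. Alternatives were other lists, windows, overlaps and thresholds. Overlap and fold reading were checked on simulated data. Python 3.11.15, NumPy 2.4.6 and pandas 2.3.3 were used.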

Additional observations from a re-analysis of the deposited data

How the results depend on the processing

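The number of pathway genes with a series-wide gene-end peak, 22, stayed between 21 and 23 with windows of 500 bp and 5 kb, with the summit or 50% of the peak required inside the window, and with peaks found in both replicates only; it was 20 of the 28 genes with strand for the start alone. The shares of all genes were 31.8% at 500 bp, 47.4% at 5 kb, 32.8% with the summit inside and 33.1% with 50% of the peak inside. They were 34.4% for peaks found in both replicates and 32.9% for the start alone. Requiring both replicates could change little, since the series-wide list is labelled as filtered for agreement. Under that setting 7523 of all genes kept a peak, against 7644 without it. Oxct1 was lost when the series-wide summit had to lie inside, although both replicate summits lie inside; with the summit of the higher replicate, an alternative chosen after seeing the data, 22 genes and 23 of the other pathway genes had a peak (against 32.9% of all genes). Dld was gained at 5 kb. Leaving out either replicate, which leaves the list of the other, gave 27 and 28 genes (against 50.2% and 48.2% of all genes), a median fold of 10.6 and 11.8, 29 genes in each for the gene with 10 kb, and 28 and 27 of the other pathway genes. These lists reach lower folds than the series-wide list. The highest 50% of peaks gave 11 of 31 genes at gene ends (35.5%, against 16.7% of all genes), 7 of the other pathway genes and a median fold of 25.0. With 10 kb they gave 12 of 31 genes, a lower share than the 41.6% of all genes. The highest 20% gave 6 of 31 genes at gene ends (19.4%, against 5.66% of all genes), 4 of the other pathway genes and a median of 33.7. With 10 kb they gave 7 of 31 genes, a share close to the 21% of all genes. Fewer peaks enter by construction under both limits. The planned motif count around summits was not run, since the promoter windows hold only part of that sequence and no genome was used here; the windows themselves were searched instead. No paired analysis was possible because the input samples have no values here and the pull-down samples form a single group. Values between 5 and 8-fold rest on a few steps and are the least certain.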

Other observations

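Over all promoter windows with a series-wide peak, the composite site TGATGCAA stood in 6 of 1168 windows with a peak under 10-fold (0.514%) and in 7 of 395 windows at 30-fold and above (1.77%). The CRE stood in 4.54% of the windows under 10-fold, 5.75% of those at 20 to 30-fold and 1.77% of those at 30-fold and above. Of the pathway genes at 30-fold and above, Pdhb, Pdhx, Cs and Oxct1, none had either full site in its windows. Only the window of Cs held the series-wide summit. The sequence around the summits of Pdhb, Pdhx and Oxct1 was searched only in part or not at all. No test was made of these shares.

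Among the other pathway genes, strong peaks lay away from gene ends at Slc16a1, the lactate and ketone body transporter, and at Idh1, the cytosolic isocitrate dehydrogenase. Slc16a1 had 11-fold and 9.31-fold in replicates 1 and 2 at its start, but 41-fold and 35.0-fold at a peak 29.1 kb from the start, past the far end of the gene. Idh1 had 10-fold and 12.4-fold at its start and 32.5-fold and 39.4-fold at replicate summits 7.23 and 7.24 kb inside the gene, under a wide series-wide peak. Both genes were picked after their values were seen.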
